A study of Oreochromis niloticus with 9 samples.

Results

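The digestive enzymes of the exocrine pancreas were measured in liver RNA of GIFT, a farmed strain of the Nile tilapia Oreochromis niloticus that was improved by breeding. Loci were taken by symbol from the expression table: zgc:112160, and symbols that begin with cpa or cpb and a number (without cpb2), cel., cela, ctrb, ctrl, prss1, amy2, pnlip or clps. This rule matched 9 of 37283 loci. Of these, 6 are listed here as digestive enzymes (zgc:112160, cpa1, cpa4, cpb1, cel.2 and CELA3A), and the other 3 (prss16, prss12 and a second locus named PRSS16) share only the letters of the prefix and encode other serine proteases. No locus carried a symbol that begins with ctrb, ctrl, amy2, pnlip or clps, and none was prss1 itself, so chymotrypsin, the trypsin of that name, amylase and pancreatic lipase were not described under those names.

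In many fish, the exocrine pancreas does not form a single compact gland. In tilapia, part of it lies inside the liver as strips of acinar cells along branches of the portal vein, which is why the organ is called a hepatopancreas, and liver RNA therefore carries acinar transcripts. Acinar cells make digestive enzymes in large amounts, most of them as inactive zymogens, and release them through the pancreatic duct into the gut. The enzymes include peptidases that cut proteins, among them carboxypeptidases, trypsins and elastases, and lipases that cut dietary fats.

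The libraries came from 3 diets that were fed for 8 weeks. Group C received a basal diet with 0% apple peel powder (APP), group APP_A received 0.2% APP and group APP_H received 0.8% APP. Each group had 3 libraries, and each library held the mixed RNA of 5 fish of 1 tank, so the differences between fish of a tank were averaged before sequencing. All groups were GIFT of the same trial, kept in the same kind of tanks and sampled for the same organ. Levels are given as FPKM, the fragments scaled by transcript length and by the mapped fragments of the library, which the authors computed, so they can be compared between genes. The table holds no read counts, and no counting interval could be given.

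One library stood apart in genes other than the enzymes as well. Of 29 hepatocyte loci, the markers of the main liver cell, 26 had a lower level in APP_H3 than in any of the 7 libraries other than APP_A2 and APP_H3. Of all genes tested, 26.8% did. The mean log2(FPKM + 1) of the hepatocyte list was 5.51 in APP_H3 against 8.60 to 9.98 in those 7 libraries and 9.26 in APP_A2. The locus apoa1a of this list was listed at 0 in C1, C2, C3, APP_A2, APP_H1 and APP_H2. It had 30624, 43942 and 1895 FPKM in APP_A1, APP_A3 and APP_H3, which raises the list means of only these libraries. The blood list, which holds red cell genes and some epb41-like loci, had a mean of 6.52 in APP_H3 against 2.70 to 4.47 in the other 8 libraries. The summed FPKM of all loci was 1226500 in APP_H3 and 1941490 to 2631530 in the others. The range of the enzyme sum, the share of genes with a smaller SD, the fold changes and the likeness are therefore given with and without APP_H3. Group means in FPKM and ratios between loci include it.

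Exocrine enzyme transcripts were present in all 9 libraries, and none of the 6 enzymes was listed at 0 in any library. Their sum was 4045, 9989 and 7406 FPKM in C1, C2 and C3, 6046, 806 and 10818 FPKM in APP_A1, APP_A2 and APP_A3, and 7815, 5673 and 211 FPKM in APP_H1, APP_H2 and APP_H3. The highest library (APP_A3) thus held 51.4 times the sum of the lowest (APP_H3). The next lowest library was APP_A2, and without APP_H3 the range was 13.4-fold. Among the other 7 libraries it was 2.67-fold. The 6 loci made up 0.0172% (APP_H3) to 0.466% (APP_A3) of the summed FPKM of a library. In the read summary of the study, APP_A3 had the lowest share of valid reads and the fewest mapped reads. APP_H3 had the highest share of reads in exons. Whether these differences bear on the enzyme sums was not tested. Fewer acinar cells in the sampled tissue and less RNA per acinar cell cannot be told apart in such bulk samples.

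**Figure D1:**
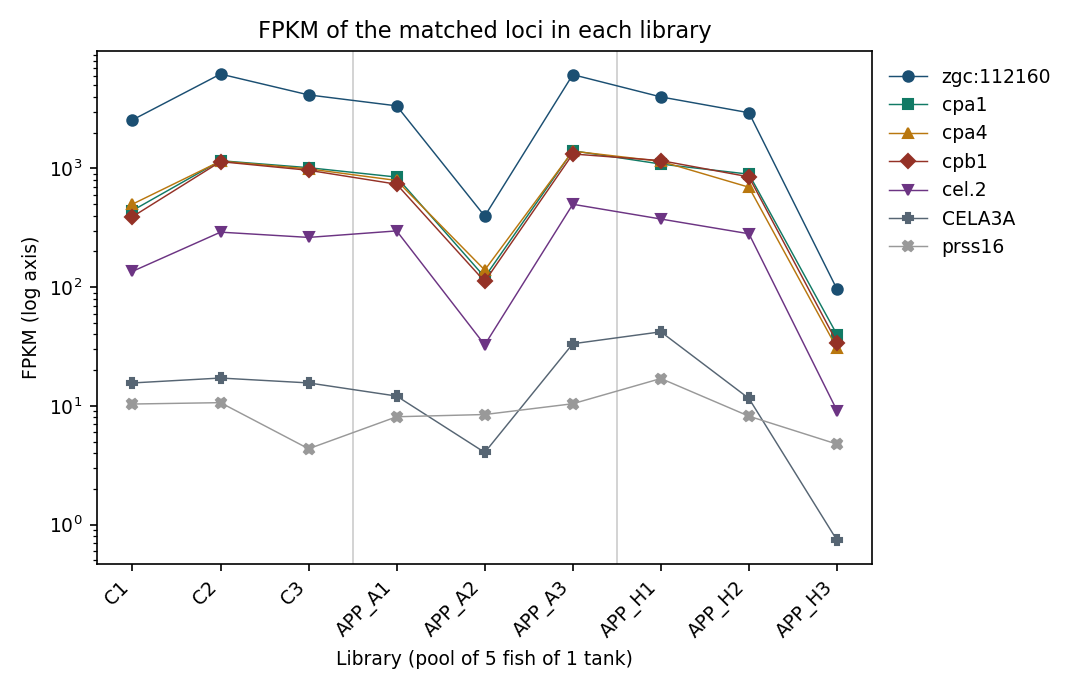
FPKM (log axis) of the 7 matched loci that passed the filter in each of the 9 libraries, with thin lines that only join the points of a locus. The 6 enzymes drop in APP_A2 and again in APP_H3 (sums of 806 and 211 FPKM), while prss16 stays between 4.36 and 17.02 FPKM.

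The most abundant member was zgc:112160 (XLOC_000937, GL831133.1:9934456-9947207), which is named after a zebrafish clone and to which no role is assigned here. It had 2559.7, 6229 and 4158 FPKM in group C, 3364, 397 and 6158 FPKM in group APP_A, and 3999.8, 2942 and 96.1 FPKM in group APP_H. APP_A2 and APP_H3 lay below the rest, the other 7 libraries lay between 2559.7 and 6229 FPKM, and the groups overlapped. Group means were 4316 ± 1839.6 in C, 3306 ± 2881 in APP_A and 2346 ± 2019 in APP_H (SD, n = 3). This locus alone made up 45.6% (APP_H3) to 63.3% (C1) of the sum of the 6 enzymes.

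The neighbouring locus of the same scaffold, zgc:136461 (XLOC_000936, GL831133.1:9925243-9929362), ends 5093 bases before zgc:112160 and had a close profile, from 87.2 FPKM in APP_H3 to 5136 FPKM in APP_A3. The ratio of zgc:112160 to zgc:136461 stayed between 1.00 (APP_A1) and 1.53 (C1). Whether the sequences of these neighbours are similar enough to share reads was not examined, so the division of reads between them is uncertain.

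The 3 carboxypeptidases, enzymes that remove residues from the carboxyl end of peptides, had similar levels. Carboxypeptidases of the A type prefer aromatic and aliphatic residues, and those of the B type prefer lysine and arginine. The level of cpa1 (XLOC_016861, GL831206.1:865019-872328) was 442, 1161 and 1014 FPKM in C, 845, 122 and 1408 FPKM in APP_A, and 1088, 894 and 39.8 FPKM in APP_H. For cpa4 (XLOC_025916, GL831310.1:153042-160040) the levels were 500.0, 1151 and 991 FPKM in C, 792, 139 and 1397 FPKM in APP_A, and 1147, 694.5 and 30.6 FPKM in APP_H. Both loci were highest in APP_A3, and for both the 2 low libraries were APP_A2 and APP_H3. The level of cpb1 (XLOC_003068, GL831138.1:658942-664638), a carboxypeptidase of the B type, was 392, 1139.9 and 965 FPKM in C, 736, 112 and 1323 FPKM in APP_A, and 1163, 849 and 34.2 FPKM in APP_H. The values of the 3 groups overlapped for each carboxypeptidase. Group means of cpb1 were 832 ± 391 in C, 724 ± 606 in APP_A and 682 ± 583 in APP_H (SD, n = 3).

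The lipase of the set was cel.2 (XLOC_004405, GL831141.1:5312803-5325202), a carboxyl ester lipase, the type of enzyme that bile salts activate in the gut. It had 136, 291 and 262 FPKM in C, 298, 32.7 and 499 FPKM in APP_A, and 375, 282 and 9.12 FPKM in APP_H. It was again lowest in APP_H3 and second lowest in APP_A2, and C1 ranked next. Group means were 230 ± 82.5 in C, 276 ± 234 in APP_A and 222 ± 190 in APP_H (SD, n = 3). An unnamed locus (XLOC_004404, GL831141.1:5309970-5312207) ended 595 bases before cel.2, with 42.0 FPKM in APP_H3, 509 FPKM in APP_A2 and 440 to 1745 FPKM in the other 7 libraries.

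CELA3A (XLOC_003825, GL831140.1:8954947-8957637), an elastase of the chymotrypsin family that in humans is made by the pancreas, was the lowest of the 6 enzymes. It had 15.6, 17.2 and 15.6 FPKM in C, 12.1, 4.06 and 33.4 FPKM in APP_A, and 42.1, 11.6 and 0.74 FPKM in APP_H. The 3 control libraries were close to each other, while each APP group held values on both sides of them. Group means were 16.1 ± 0.898 in C, 16.5 ± 15.2 in APP_A and 18.1 ± 21.4 in APP_H (SD, n = 3). In every library the order from zgc:112160 through the carboxypeptidases and cel.2 to CELA3A held. The order among cpa1, cpa4 and cpb1 changed from library to library, and their group means differed by less than 1 SD within each group.

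The 3 other proteases did not share this profile. The locus prss16 (XLOC_027554, GL831338.1:8676-34959), whose mammalian counterpart is a serine protease of the thymus, ranged from 4.36 FPKM in C3 to 17.02 FPKM in APP_H1, with 8.47 FPKM in APP_A2 and 4.77 FPKM in APP_H3. The level of prss12 (neurotrypsin in mammals) was at most 0.05 FPKM, and the second PRSS16 locus was listed at 0 in all 9 libraries. These 2 loci did not pass the filter of at least 1 FPKM in at least 3 libraries, which left 7 of the 9 matched loci for the tests.

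The spread of each enzyme rested on the same pair of libraries. APP_H3 was the lowest and APP_A2 the second lowest library for all 6 enzymes, and C1 came next for 5 of the 6. The median of the other 7 libraries was 10.1 times the level in APP_A2 for zgc:112160, 8.34 times for cpa1, 7.11 times for cpa4, 8.64 times for cpb1, 8.89 times for cel.2 and 3.85 times for CELA3A. It was 21.1 (CELA3A) to 41.6 (zgc:112160) times the level in APP_H3. For prss16 the corresponding ratios were 1.23 and 2.18. The highest library was APP_A3 for cpa1, cpa4, cpb1 and cel.2, C2 for zgc:112160 and APP_H1 for CELA3A.

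The SD over the 9 libraries on the log2(FPKM + 1) scale was 1.40 for CELA3A, 1.75 for cpa1, 1.80 for cpa4, 1.81 for cpb1, 1.87 for cel.2 and 2.03 for zgc:112160. These SDs were larger than those of 79.4% (CELA3A) to 89.4% (zgc:112160) of the 20575 genes tested. Without APP_H3 the share was 73.3 to 81.6%. In the 7 libraries left when APP_A2 was also set aside it was 46.9% (zgc:112160) to 62.2% (CELA3A), near the middle of all genes. APP_A2 was set aside because the enzymes were low there, while other genes kept their own extreme libraries. Part of this fall in the share therefore follows from the choice of libraries. The SD of prss16 over the 9 libraries was larger than that of 37.8% of genes.

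Spread was present within each diet. The sum of the 6 enzymes varied 2.47-fold among the C libraries, 13.4-fold among the APP_A libraries and 37.1-fold among the APP_H libraries. Group means of this sum were 7147 ± 2980.5 in C, 5890.3 ± 5008 in APP_A and 4566 ± 3921 in APP_H (SD, n = 3). The differences between these means were smaller than the SD of either APP group.

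The 6 enzymes moved together across libraries. Pairs were compared on the scale of log2 FPKM, without the added 1. Pearson's r over the 9 libraries was 0.982 to 0.999 for the 10 pairs of the 5 more abundant enzymes. It was 0.937 to 0.962 for the 5 pairs with CELA3A. Over the 7 libraries without APP_A2 and APP_H3 the ranges were 0.702 to 0.990 and 0.478 to 0.662. These values are a description, since the 9 points of every pair share their libraries and 2 of the points lie far from the rest. The closest pair was cpa1 and cpb1, whose FPKM ratio was 0.935 to 1.17 while the levels themselves varied 35.3-fold for cpa1 and 38.7-fold for cpb1.

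The composition of the enzyme signal was examined by dividing each level by that of cpb1 in the same library, which removes any factor common to all loci of a library. The ratio of zgc:112160 to cpb1 was 6.53, 5.46 and 4.31 in C, 4.57, 3.55 and 4.65 in APP_A, and 3.44, 3.47 and 2.81 in APP_H. All 3 APP_H libraries lay below all C and all APP_A libraries, with means of 5.44 ± 1.11, 4.26 ± 0.613 and 3.24 ± 0.369 (SD, n = 3) for C, APP_A and APP_H. For cpa4 the ratio was 1.276, 1.010 and 1.027 in C, 1.08, 1.25 and 1.06 in APP_A, and 0.986, 0.818 and 0.895 in APP_H, with the APP_H libraries again below the other groups. The ratios of cpa1, cel.2 and CELA3A overlapped between all groups.

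**Figure D2:**
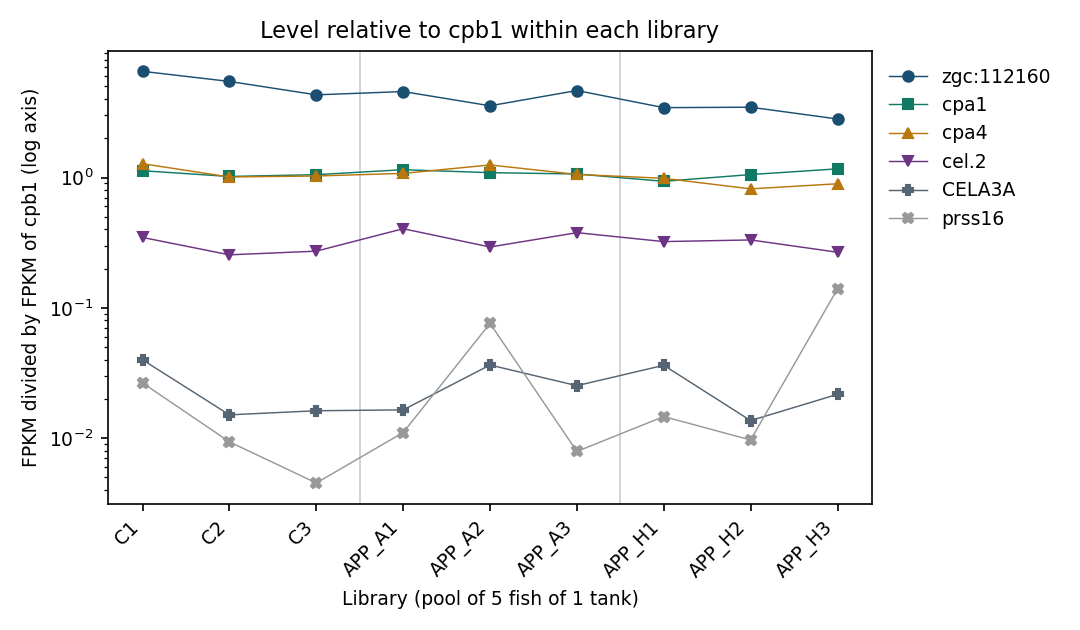
FPKM of each locus divided by the FPKM of cpb1 in the same library (log axis), for the 9 libraries, with thin lines that only join the points of a locus. The ratio of zgc:112160 lies at 4.31 to 6.53 in C and at 2.81 to 3.47 in APP_H, and prss16 is highest in APP_H3 and APP_A2.

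Relative to cpb1, APP_H and C did not overlap for 2 of 5 enzymes and for 6 of 11 other pancreatic loci (zgc:136461, endou, ela2, pla2g1b, a second PLA2G1B locus and zgc:92590), each time with APP_H lower, where 4.28% of all genes did not overlap in either direction. APP_H and APP_A did not overlap for the same 2 enzymes and for 6 of the 11 other loci, again with APP_H lower, where 4.14% of all genes did not. APP_A and C overlapped for all 16 loci, where 2.44% of all genes did not overlap. These shares over all genes are not a like baseline for the pancreatic loci. The ratio of a gene that does not follow cpb1 takes on the 38.7-fold range of cpb1, so its groups tend to overlap. The lower ratios in APP_H were noticed after the values were seen, have no test and depend on the reference. For references other than cpb1, no share over all genes was computed. The counts with those references are a description with no background to read them against. Among the 16 other loci of this set, 4 were lower and none higher in APP_H than in C when cpa1 was the reference, 10 were lower with cel.2, 2 were lower with CELA3A, 3 were lower and 2 higher with cpa4, 7 were lower and 1 higher with try, and none was lower and 7 were higher with zgc:112160. Between APP_H and APP_A, 2 were lower with cpa1, 3 were lower with cel.2, 1 was lower and 1 higher with cpa4 and likewise with try, none separated with CELA3A, and 3 were higher with zgc:112160. Between APP_A and C, 4 were higher with zgc:112160, 3 were lower with cel.2, 2 were lower with try, and none separated with cpa1, cpa4 or CELA3A. Relative to the geometric mean of the 17 loci, zgc:112160, ela2 and pla2g1b were lower, and cpb1, cel.2 and try were higher, in all APP_H than in all C libraries, while 1 locus (cpb1) was higher and none lower in APP_H than in APP_A, and none separated APP_A from C.

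The diets were then compared for the level of each locus, to ask whether 0.2% or 0.8% APP changed the expression of the enzymes. None of the 7 loci passed the test in any comparison. In APP_A vs. C, 0 of 7 loci were DE (|log2 fold change| of at least 1 and adjusted p under 0.05 in limma, Benjamini-Hochberg method over 20575 genes), where 0.0972% of all genes were DE. In APP_H vs. C, 0 of 7 loci were DE against 0.122% of all genes. The third comparison, APP_H vs. APP_A, had 0 of 7 against 0.136%. With DE genes this rare among all genes in limma, a count of 0 among 7 is near the background. The study reported many more DE genes in each comparison, with Cuffdiff. No locus had an unadjusted p under 0.05 in any comparison. The groups overlapped for all 7 loci in all 3 comparisons. Of all genes, 11.0% (APP_A vs. C), 12.9% (APP_H vs. C) and 14.5% (APP_H vs. APP_A) did not overlap. A count of 0 among 7 is near this background too.

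The log2 fold changes, on the log2(FPKM + 1) scale, had SEs of 1.15 to 1.57 for the enzymes. In APP_H vs. C the value for zgc:112160 was -1.95 (SE 1.57, adjusted p = 0.726 in limma). For the carboxypeptidases it was -1.24 (cpa1, SE 1.43), -1.50 (cpa4, SE 1.44) and -1.21 (cpb1, SE 1.48). For cel.2 it was -1.10 (SE 1.54), and for CELA3A it was -0.81 (SE 1.15), a value that the added 1 FPKM makes smaller since this locus is low. Adjusted p values of the 6 enzymes in this comparison were 0.726 to 0.816 in limma. In APP_A vs. C the values were -0.35 (cel.2) to -1.003 (zgc:112160), each with an adjusted p of 1.0 in limma. In APP_H vs. APP_A they were -0.43 (CELA3A) to -0.95 (zgc:112160), with adjusted p values of 0.799 to 0.884 in limma. For prss16 the 3 values were 0.16, 0.14 and -0.015 (SE 0.49).

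For most enzymes the sign of these values turned when 1 APP library was left out. Without APP_A2, all 6 enzymes had a higher mean in APP_A than in C, from 0.17 (zgc:112160) to 0.82 (cel.2) on the log2 scale. Without APP_H3, the APP_H vs. C values were 0.29 for cpa1, 0.11 for cpa4, 0.40 for cpb1, 0.57 for cel.2, 0.44 for CELA3A and -0.24 for zgc:112160. The median over the 7 loci was -0.61 in APP_A vs. C (-0.052 over all genes) and -1.21 in APP_H vs. C (-0.028 over all genes). For APP_H vs. APP_A it was -0.63 (0.020 over all genes). It was 0.34 in APP_A vs. C without APP_A2, 0.40 in APP_H vs. C without APP_H3, and 0.82 in APP_H vs. APP_A without APP_H3. APP_A vs. C and APP_H vs. C share the C libraries, and no locus was DE with or without APP_A2 and APP_H3.

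**Figure D3:**
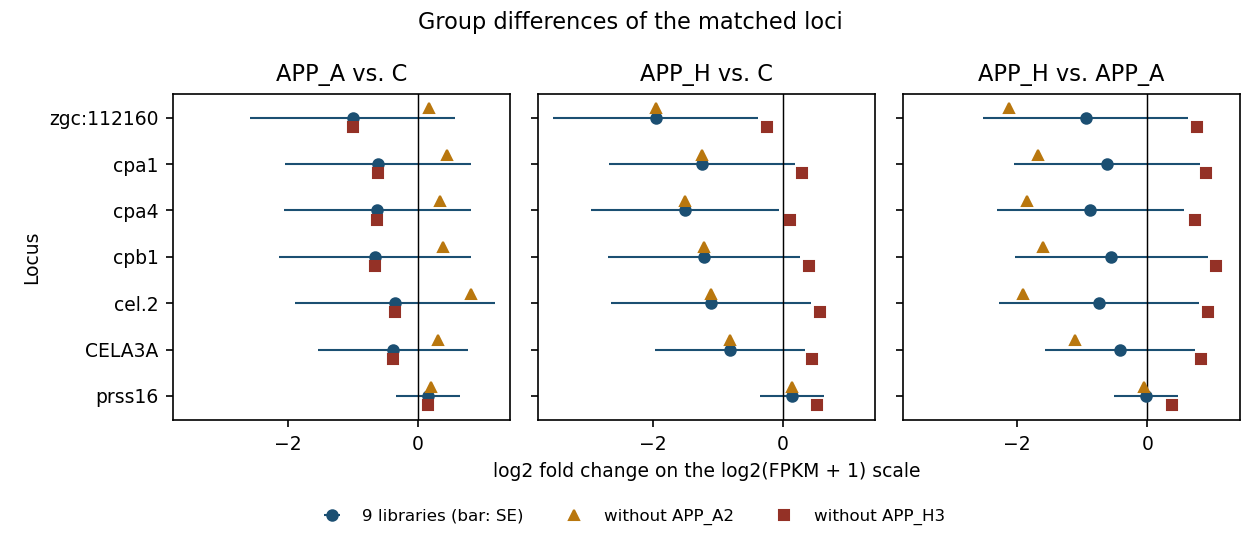
Log2 fold change of the 7 loci on the log2(FPKM + 1) scale in the 3 comparisons, with all 9 libraries (circles, bars are SE), without APP_A2 (triangles) and without APP_H3 (squares). The values of the enzymes cross 0 for APP_A vs. C without APP_A2 (median of the 7 loci 0.34) and, other than zgc:112160, for APP_H vs. C without APP_H3 (median 0.40).

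Most loci listed as other secreted proteins of the pancreas followed the same libraries. The list held 12 loci, of which 11 passed the filter. The locus cpamd8 was taken in only by the first letters of its symbol and did not pass. The list had a mean log2(FPKM + 1) of 6.95 in APP_A2, 4.85 in APP_H3 and 8.83 to 9.89 in the other 7 libraries. For the 6 enzymes the corresponding means were 6.16, 4.37 and 8.14 to 9.66. In APP_A2, 9 of the 11 loci lay below all 7 other libraries, as did all 6 enzymes, where 12.0% of all genes did (the 7 libraries leave out APP_A2 and APP_H3). The 2 exceptions were cpo and pla2g1b. In APP_H3, 11 of 11 and 6 of 6 did, where 26.8% of all genes did. APP_A2 was set apart because the 6 enzymes were low there, so their count in it follows from that choice. The list of other pancreatic loci was written with earlier results of these data known.

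The trypsin locus try (XLOC_033883), which encodes the protease that activates the other zymogens in the gut, was the highest of these, with 8926, 20254 and 15195 FPKM in C, 16024, 2063 and 26356 FPKM in APP_A, and 19895, 14596 and 489 FPKM in APP_H. The low libraries were again APP_H3 and APP_A2, and the groups overlapped. The elastase ela2 had 222 FPKM in APP_H3, 1066 FPKM in APP_A2 and 4657 to 12299 FPKM elsewhere. For the trypsin-like prss59.1 these values were 207, 769 and 3249 to 11986 FPKM. For the elastases ela2l and ela3l, APP_H3 had 53.3 and 12.6 FPKM, APP_A2 had 210 and 50.0 FPKM, and the other libraries had 990 to 2246 and 295 to 768 FPKM. The endoribonuclease-type locus endou had 40.0 FPKM in APP_H3, 164 FPKM in APP_A2 and 638 to 1793 FPKM elsewhere. For zgc:92590 the values were 8.34, 47.0 and 197 to 487 FPKM. Of the pancreatic phospholipase A2 loci, PLA2G1B had 14.3, 74.4 and 297 to 835 FPKM, and pla2g1b had 0.24, 7.59 and 6.73 to 24.1 FPKM. Together, the 6 enzymes and this list made up 0.110% (APP_H3), 0.262% (APP_A2) and 0.975 to 3.13% (other 7 libraries) of the summed FPKM.

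Regulators and secretory genes of acinar cells were lower in abundance. Of 22 listed loci, 13 passed the filter. In APP_H3, 12 of the 13 lay below all 7 other libraries, where 26.8% of all genes did. In APP_A2, 3 of the 13 did, where 12.0% of all genes did, namely ERP27 and pdia2, which encode protein-folding factors of the acinar endoplasmic reticulum, and rbpjl, a subunit of the acinar transcription complex. ERP27 had 18.4, 56.2 and 40.2 FPKM in C, 34.7, 5.92 and 53.8 FPKM in APP_A, and 48.7, 30.3 and 1.2 FPKM in APP_H. The level of pdia2 was 2.40 FPKM in APP_A2, 0.45 FPKM in APP_H3 and 7.27 to 22.2 FPKM in the other libraries, and that of rbpjl was 0.09, 0.10 and 1.11 to 4.83 FPKM. The other 10 lay within the range of the other 7 libraries in APP_A2, and the median difference of the 13 loci from the median of those libraries was -0.15 on the log2 scale. Which cells made the transcripts of any of the 13 loci was not tested. Among the 10 loci within the range, the acinar factor bhlha15 had 3.1 FPKM in APP_A2 against 2.2 to 6.23 FPKM. The level of nr5a2 was 4.64 against 3 to 5.33 FPKM, and that of gata4 was 6.67 against 5.84 to 9.61 FPKM. The more abundant gata6, hnf1ba and foxa3 had 17.8, 10.6 and 29.4 FPKM in APP_A2, within the range of the other 7 libraries, and 1.15, 0.61 and 1.86 FPKM in APP_H3, below it. The secretory cell factor xbp1 had 128 FPKM in APP_A2, 48.4 FPKM in APP_H3 and 80.8 to 172 FPKM in the others. The acinar factor ptf1a and the cholecystokinin receptor CCKAR did not pass the filter. The level of ptf1a was 0 FPKM in APP_A2 and in APP_H3, and 0.2 to 1.32 FPKM in the other 7 libraries. For CCKAR it was 0.06 FPKM in APP_A2, 0 FPKM in APP_H3 and 0.4 to 1.28 FPKM in the other 7. None of the other listed loci that failed the filter lay below the other 7 libraries in APP_A2.

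The low enzyme levels of APP_A2 and APP_H3 stood beside different values in the other lists. In APP_A2, 0 of 29 hepatocyte loci lay below all 7 other libraries, where 12.0% of all genes did. The median difference from the median of those libraries was 0.0 on the log2 scale for the hepatocyte list, with 14 of the 29 loci lower. This 0.0 is the value of apoa1a, which was listed at 0 in APP_A2. It was -3.07 for the 6 enzymes and -2.96 for the other pancreatic list. In APP_H3, the median differences were -4.61 for the hepatocyte list, -4.81 for the enzymes and -5.03 for the other pancreatic list, so that hepatocyte and pancreatic loci were low by a similar amount. The blood list had a mean log2(FPKM + 1) of 3.90 in APP_A2, within the 2.70 to 4.47 of the other 7 libraries. In APP_H3 the red cell genes alas2, slc4a1a and cahz had 915, 942 and 1019 FPKM, against 31.5 to 147, 16.4 to 176 and 22.8 to 166 FPKM in the other 8 libraries.

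The lymphoid list (6 of 9 loci passed the filter) had a mean of 1.303 in APP_A2, with 5 of the 6 below all 7 other libraries (12.0% of all genes), and 4.03 in APP_H3, against 1.75 to 3.80 in the other 7. Of the intestinal list, 3 of 16 loci passed the filter and 11 stayed under 1 FPKM in every library. Of the list for the endocrine pancreas, 1 of 22 passed, namely pdx1, with 0.34 to 1.90 FPKM. The part of tissue composition or RNA quality in the low enzyme values of APP_A2 and APP_H3 was not tested.

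**Figure D4:**
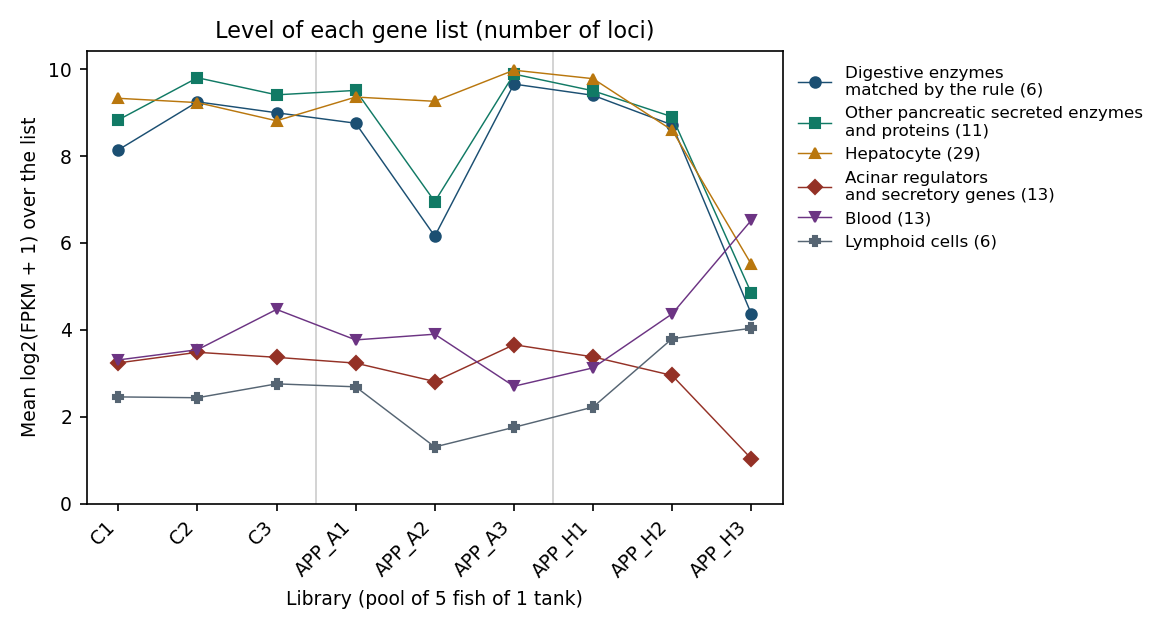
Mean log2(FPKM + 1) over the loci of each list that passed the filter, in each of the 9 libraries, with thin lines that only join the points of a list. In APP_A2 the enzymes (6.16) and other pancreatic loci (6.95) are low while the hepatocyte list is at 9.26, and in APP_H3 all of these are low while the blood list is at 6.52.

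The genes most like the enzymes were sought among the 20568 other genes tested, by Pearson's r over the 9 libraries with the mean log2(FPKM + 1) of the 7 matched loci that passed the filter. The 10 named loci with the highest r were try (0.997), zgc:92745 (0.997), ERP27 (0.994), zgc:136461 (0.993), ela3l (0.993), zgc:92511 (0.993), prss59.1 (0.992), ela2 (0.990), ela2l (0.988) and pglyrp2 (0.984). Of these, 7 are in the lists of pancreatic loci, and zgc:92745, zgc:92511 and pglyrp2 are not. In APP_H3, APP_A2 and the other 7 libraries, zgc:92745 had 107, 517 and 2757 to 8541 FPKM. For zgc:92511 these levels were 156, 780.0 and 2602 to 6907 FPKM, and for pglyrp2 they were 5.55, 21.8 and 79.2 to 240.3 FPKM. An r of at least 0.95 was reached by 39 genes, or 0.190% of those compared, and 22 of them had a symbol. The r of prss16 with this mean, to which it contributes, was 0.548.

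Without APP_H3, over 8 libraries, the highest values were again those of try (0.991) and zgc:92745 (0.991), 24 genes reached 0.95, and tmed6 (0.984) and mgp (0.969) took the places of ela2l and pglyrp2 among the first 10. Over the 7 libraries without APP_A2 and APP_H3, 8 genes reached 0.95, with tmed6 (0.991) and tspan2a (0.983) ahead of synrg (0.960) and try (0.958). Fewer genes thus reached 0.95 without the low libraries, and these correlations have no test.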

How the data were processed

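Liver RNA of 9 libraries (3 per diet, each a pool of 5 fish of 1 tank) was sequenced as paired ends from poly(A) RNA. According to the methods of the study, the authors filtered the reads, mapped them on the genome of the species by TopHat and computed FPKM with Cufflinks, and the deposited table holds FPKM per locus and library. The submitters' processing notes also name Bowtie 0.12.2, HISAT2 2.0, StringTie 1.3.0 and the mouse build mm8, and which of these made the table was not given in the sources used here. Positions are as the table gives them, on its scaffolds, and the genome release is not named.

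Levels were transformed to log2(FPKM + 1), and 20575 of 37283 loci with at least 1 FPKM in at least 3 libraries were tested with limma 3.58.1 (R 4.3.3), with 1 mean per group, all 9 libraries and an intensity trend. Adjusted p values follow Benjamini and Hochberg, over all genes tested. The study selected DE genes with Cuffdiff, which needs reads, so limma was used with the same thresholds. It was tested on simulated data first. Depth behind a value is unknown from FPKM, and the low values showed no steps of whole reads, so precision is the spread between libraries. Replicates are taken as tanks from the methods of the study, while the labels give only a group and a number.

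The members and the gene lists (hepatocyte, blood, lymphoid, intestinal, endocrine pancreas, other pancreatic secreted proteins, acinar regulators) were chosen with earlier results of these data known. Every matched locus was accounted for. Each of the 4 leading symbols and any other locus reaching 100 FPKM was given in every library, the rest by ranges, together with the 10 named genes most like the members and the listed genes of mean FPKM of at least 10. Of the hepatocyte, blood and lymphoid lists, which serve as checks of the libraries, only counts, list levels and a few such genes are given. Alternatives were pseudocount 0.1, no filter, 5 FPKM in 3 libraries, median-ratio and quantile scaling, only the groups compared, a replicate block, no trend, zeros as missing and each library left out. One more, leaving out both APP_A2 and APP_H3, was chosen after the data were seen. In the table, 1411 loci are listed at 0 in some library against a median of at least 10 FPKM in the others, and none is a member.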

Additional observations from a re-analysis of the deposited data

How the results depend on the processing

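No member was DE in any of the 3 comparisons under any of the 20 settings run, and none had an unadjusted p under 0.05 in limma. The lowest adjusted p in limma was 0.358 (APP_H vs. C), followed by 0.400 (APP_H vs. APP_A) and 0.909 (APP_A vs. C). No pseudocount, filter, scaling or trend setting turned the sign of a member's value. The deviations of libraries from their group means correlated over 0.1 in 1 of 9 pairs with equal replicate numbers (median r 0.032). Of the 18 pairs with unequal numbers, 0 did (median r -0.0044). Whether libraries of equal number share a block cannot be told from these values. With the replicate block, 0 members were DE, the fold changes were the same and the lowest adjusted p of a member was 1.0 (APP_A vs. C), 0.825 (APP_H vs. APP_A) and 0.750 (APP_H vs. C), while the DE genes among all genes numbered 7, 3 and 8 in place of 20, 28 and 25. Leaving out 1 library at a time moved the median log2 fold change of the 7 loci from -1.68 to 0.82 in APP_H vs. APP_A, from -1.32 to 0.34 in APP_A vs. C and from -2.07 to 0.40 in APP_H vs. C.

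In APP_A vs. C the leave-one-out range was -1.81 to 0.17 (zgc:112160), -1.39 to 0.39 (cpb1), -1.07 to 0.31 (CELA3A), -1.13 to 0.82 (cel.2), -1.32 to 0.44 (cpa1), -1.32 to 0.34 (cpa4), -0.21 to 0.35 (prss16). In APP_H vs. C the leave-one-out range was -2.92 to -0.24 (zgc:112160), -2.13 to 0.40 (cpb1), -1.87 to 0.44 (CELA3A), -2.03 to 0.57 (cel.2), -2.07 to 0.29 (cpa1), -2.49 to 0.11 (cpa4), -0.29 to 0.53 (prss16). In APP_H vs. APP_A the leave-one-out range was -2.12 to 0.76 (zgc:112160), -1.60 to 1.05 (cpb1), -1.49 to 0.82 (CELA3A), -1.92 to 0.93 (cel.2), -1.68 to 0.91 (cpa1), -1.86 to 0.73 (cpa4), -0.45 to 0.37 (prss16).

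Without both APP_A2 and APP_H3, the APP_A vs. C values were 0.17 for zgc:112160, 0.39 for cpb1, 0.31 for CELA3A, 0.82 for cel.2, 0.44 for cpa1 and 0.34 for cpa4. The APP_H vs. C values were 0.40 for cpb1, 0.44 for CELA3A, 0.57 for cel.2, 0.29 for cpa1, 0.11 for cpa4 and -0.24 for zgc:112160. In APP_H vs. APP_A they were -0.41 for zgc:112160, -0.25 for cel.2, -0.15 for cpa1, -0.24 for cpa4, 0.010 for cpb1, 0.13 for CELA3A and 0.33 for prss16, with a median of -0.15 and 2 of 6 enzymes above 0. The range of the summed FPKM of the 6 enzymes was 13.4-fold to 51.4-fold with 1 library left out and 2.67-fold without both. These changes follow from the low values of APP_A2 and APP_H3. With 3 libraries per group and SEs of 1.15 to 1.57 on the log2 scale, changes of a few fold in the enzymes were not detectable. Counting error at the low values of CELA3A was not estimated.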

Other observations

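Hormone genes of the islets, the endocrine part of the pancreas, were looked at as well, and the values given here were chosen after they were seen. In C2, ins (insulin) had 5.06 FPKM, gcga (glucagon) 5.42 FPKM and sst1.1 (somatostatin) 4.87 FPKM. In the other 8 libraries gcga and sst1.1 were listed at 0, and ins was listed at 0 except for 0.20 FPKM in APP_H3. Of the 22 endocrine loci, 17 stayed under 1 FPKM in every library. C2 had the second highest sum of the 6 exocrine enzymes (9989 FPKM). In APP_A3, which had the highest sum (10818 FPKM), these 3 loci were listed at 0. The other glucagon locus, gcgb, had its highest level there, with 0.96 FPKM in APP_A3, 0.62 FPKM in C2, 0.53 FPKM in APP_H1, 0.32 FPKM in C1 and 0.15 FPKM in APP_H3, and was listed at 0 in the other 4 libraries.

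Several abundant loci without a gene name had profiles close to those of the enzymes. XLOC_015717 (GL831198.1:1971029-1971413) had 489 FPKM in APP_H3, 1555 FPKM in APP_A2 and 2901 to 16884 FPKM in the other 7 libraries, with an r of 0.971 over the 9 libraries. XLOC_000326 (AERX01075279.2:42-1178) had 85.9, 214 and 1873 to 5518 FPKM, with an r of 0.979. These correlations are with the mean log2(FPKM + 1) of the 6 enzymes, not with that of the 7 matched loci used above. They are descriptions and were not tested.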
